A study of Mus musculus with 8 samples.

Results

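The genes of 9 subunits of the Polycomb repressive complexes PRC1 and PRC2 were followed through the neuralization of mouse ES cells, namely Ezh1, Ezh2, Eed, Suz12 and Jarid2 of PRC2 and Cbx2, Cbx6, Cbx7 and Cbx8 of PRC1. The members were all non-control probes annotated to 1 of these 9 gene symbols, which gave 13 of 55681 probes and 9 of 36163 gene names. Ezh1 and Cbx6 had 3 probes each and the other 7 genes had 1 probe each. The cells were of the E14Tg2A line (strain 129/Ola), a single established ES cell line kept with serum and the cytokine LIF. They were collected undifferentiated at 0 days in vitro (ES), as floating epiblast-like aggregates at 2 days (ELA), as adherent neural progenitor cells at 6 days (NPC) and as neural precursors with neurons at 10 days (NPC/Neu), the last 3 in serum-free medium without LIF. At each stage total RNA was hybridized beside Ago-RNA, the RNA recovered from cytoplasmic complexes with the anti-pan Ago antibody 2A8. Argonaute (Ago) is the protein of the RNA-induced silencing complex that holds the miRNA and, through it, the target mRNA. Each of the 8 one-color arrays carried RNA pooled from 3 independent experiments, so no condition has a replicate and no p-value is given. In such bulk samples, fewer cells of a type and less RNA per cell cannot be told apart.

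PRC2 places methyl groups on lysine 27 of histone H3. Ezh2 and its paralogue Ezh1 are alternative catalytic subunits, Eed and Suz12 are core partners needed for activity, and Jarid2 is an accessory subunit that helps to recruit and stimulate the complex in ES cells. Canonical PRC1 contains 1 of several Cbx proteins whose chromodomain can read this mark, and Cbx7 is known as the main Cbx protein of ES cells, whereas Cbx2 and Cbx8 are known for their part in differentiating cells.

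In total RNA the ES, NPC and neuronal markers separated ES from NPC/Neu in the direction of the stage labels, and the ELA markers followed their label in part. All 5 ES markers, led by the pluripotency factor Pou5f1, were at least 2-fold lower in NPC/Neu than in ES, and all 4 NPC markers and all 4 neuronal markers were at least 2-fold higher. The NPC markers did not set NPC apart from NPC/Neu, as Sox1, Pax6 and Nes were higher in NPC/Neu and Hes5 was nearly level. From NPC to NPC/Neu the ES markers Zfp42 and Esrrb were higher again, by 2.08-fold and 3.90-fold, and the other ES markers were higher by less than 2-fold. Of the 4 ELA markers, Fgf5 alone was 2-fold higher in ELA than in ES, and Eomes was highest in NPC/Neu (11.33 against 9.29 in ELA). Markers of other lineages were also present in part. In NPC/Neu, 1 of 2 mesoderm, 2 of 3 endoderm, 1 of 2 trophoblast, 2 of 2 glial and 2 of 2 epidermal markers were well above background, and the summed log2 signal of each list over the 4 total RNA arrays ranged from 7.74 to 9.89 for mesoderm, 8.33 to 10.4 for endoderm, 7.76 to 9.61 for trophoblast, 7.82 to 9.11 for glia and 8.39 to 8.98 for epidermis. From ES to NPC/Neu, T was 4.36-fold, Foxa2 10.2-fold and Olig1 4.18-fold higher and Gata3 2.04-fold lower. The other markers of these lists did not pass 2-fold between ES and NPC/Neu. Some did so in between, as Cdx2 was 4.73-fold and Sox17 2.38-fold higher in NPC than in ES. Mesp1 and Gata6 were not well above background on any total RNA array. Their part in the changes below was not tested. All arrays lay on 1 slide, with ES and NPC in 1 row and ELA and NPC/Neu in the other, so that for consecutive stages the row and the stage cannot be told apart, whereas ES against NPC, ELA against NPC/Neu and Ago-RNA against total RNA were compared within a row. The Ago-RNA array of ES was brighter than the others before normalization, with an upper quartile of mean spot signal of 3039 against 1060 to 1774 on the other 7 arrays.

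The members' 3′ untranslated regions (3′ UTRs) were searched for words complementary to miRNA bases 2 to 8, the seed. Of 11 miRNAs chosen, 9 were in the RefSeq table used (GRCm38.p6), and miR-302a-3p and miR-124-3p were not searched. The longest annotated transcript with a 3′ UTR was taken for each gene (GENCODE, NCBIM37). The sites of miR-26a-5p and miR-101a-3p are shown as examples of words that occur in 3 members, as those for miR-125b-5p and miR-27a-3p also do. The sites of miR-17-5p in Ezh1 and miR-125b-5p in Cbx7 are shown because both genes were lower in NPC/Neu than in ES. The word for miR-17-5p also occurs in Cbx8, which was higher. That for miR-125b-5p also occurs in Ezh1, which was lower, and in Cbx2, which was higher. A link between sites and changes was not tested. Capitals mark the seed in a miRNA and the word that pairs with it in a site.
miR-26a-5p: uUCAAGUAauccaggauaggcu
Jarid2 site: taaattgttttaaaTACTTGAgc
Suz12 site: ccagtttaggttttTACTTGAac
Ezh2 site: atttgaataaagaaTACTTGAac
miR-101a-3p: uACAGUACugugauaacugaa
Eed site: tgtttacattctttGTACTGTct
Ezh2 first site: ttcaggaaccttgaGTACTGTgg
Ezh2 second site: tctgaatttgcaaaGTACTGTaa
Cbx6 site: tcactgcagatgtgGTACTGTgg
miR-17-5p: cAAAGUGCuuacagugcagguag
Ezh1 first site: tcatagagaacaaaGCACTTTaa
Ezh1 second site: ccagtaaatttcttGCACTTTaa
miR-125b-5p: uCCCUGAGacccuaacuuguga
Cbx7 first site: tgtcccaccactttCTCAGGGca
Cbx7 second site: taggctggatatccCTCAGGGta

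The word for miR-26a-5p (TACTTGA) occurred in 3 members, Ezh2, Suz12 and Jarid2, and in 8.34% of 19915 3′ UTRs. The word for miR-101a-3p (GTACTGT) occurred in 3 members, Ezh2, Eed and Cbx6, and in 8.45% of 3′ UTRs. The word for miR-17-5p (GCACTTT) was found in Ezh1 and Cbx8 and in 10.7% of all. The first Ezh1 site overlaps the word for miR-291a-3p (AGCACTT), a miRNA of the ES cell cluster. Of the members only Ezh1 held that word, which was in 12.9% of all 3′ UTRs and 29.0% of those of 1500 bases or more. The word for miR-125b-5p (CTCAGGG) was found in Ezh1, Cbx2 and Cbx7 and in 12.0% of all. These shares rise with length. Among the 6118 3′ UTRs of 1500 bases or more they were between 18.9% and 24.8% for miR-26a-5p, miR-101a-3p, miR-17-5p and miR-125b-5p. That is the class of every member but Ezh2 (267 bases) and Eed (281 bases). Of the other words, that for miR-27a-3p (ACTGTGA) was in Suz12, Jarid2 and Cbx2 and in 14.3% of all 3′ UTRs. The word for miR-9-5p (ACCAAAG) was found at 2 places in Cbx6 and in 10.9% of all. The word for let-7a-5p (CTACCTC) was in Ezh2 and Cbx2 and in 8.19% of all. Among the 3′ UTRs of 1500 bases or more these shares were 29.0%, 23.6% and 17.3%. The Ezh2 3′ UTR, the shortest of the 9, held 4 words. Only the letters were matched, on the transcript strand, and binding at a site was not measured here.

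In total RNA the PRC2 genes other than Ezh2 were lower at the end of the series than at its start. Ezh2 was higher, by an amount that depended on the processing. Of the Cbx genes, Cbx2 and Cbx8 were higher in NPC/Neu, Cbx7 was lower and Cbx6 was nearly level. From ES to NPC/Neu, 6 of the 9 members differed by 2-fold or more, where 31.9% of the 25660 genes detected at either stage did. The median log2 change of the 9 members was −0.82, against −0.05 for all those genes. The same 6 members passed 2-fold between ES and NPC, which share a slide row (24.8% of all genes).

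**Figure D1:**
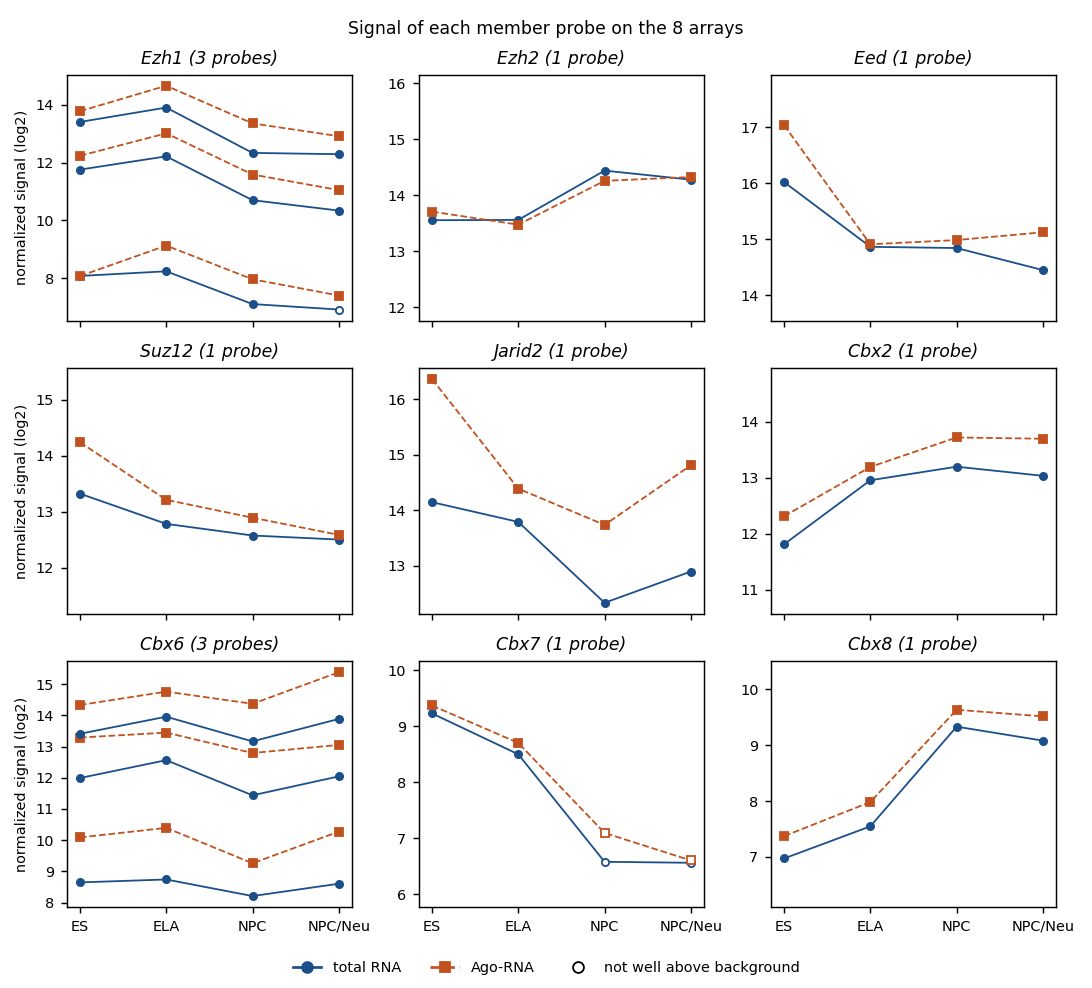
Normalized log2 signal of each of the 13 member probes (vertical axis) at the 4 stages (horizontal axis), with total RNA as circles and solid lines and Ago-RNA as squares and dashed lines, 1 array per point. Open symbols were not well above background. Cbx7 falls to open symbols in NPC and NPC/Neu while Cbx8 rises, and the Ago-RNA of Jarid2 and Eed is highest in ES.

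Ezh1 and Ezh2, the paralogous methyltransferases, parted between ELA and NPC. Ezh1 lies on chromosome 11 (101052429 to 101087777, NCBIM37, minus strand), with 2 probes in the 3′ UTR and 1 in the coding sequence. The first Ezh1 probe, at the transcript's 3′ end, read 13.41 in ES and 13.91 in ELA, then 12.34 in NPC and 12.29 in NPC/Neu total RNA on the log2 scale. The second, 250 bases from the end, read 11.76, 12.22, 10.70 and 10.34 in the same order. The third, in the coding sequence, read 8.07, 8.24, 7.10 and 6.91, and the last value was not well above background. All 3 probes were highest in ELA and lowest in NPC/Neu. Over its probes Ezh1 was 2.66-fold lower in NPC than in ELA, and 2.35-fold lower in NPC/Neu than in ES. Its values in NPC and NPC/Neu differed by 0.20, under 2 SD of the spots of repeated probes (SD 0.12).

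Ezh2 lies on chromosome 6 (47480273 to 47545340, minus strand) and its probe is in the 3′ UTR. Its log2 signal in total RNA was 13.56 in ES and 13.56 in ELA, then 14.44 in NPC and 14.28 in NPC/Neu. The values of ES and ELA did not differ beyond the spot SD (0.0824), and both later values were higher than both earlier ones. Ezh2 was 1.84-fold higher in NPC than in ELA, and 1.65-fold higher in NPC/Neu than in ES. The change of Ezh1 from ES to NPC/Neu was thus lower than that of Ezh2 by 1.96 on the log2 scale, or 3.89-fold, where the spot SD of 1 such change was 0.153 over all repeated probes. Most of the difference arose between ELA and NPC (−2.29), and the first transition contributed a difference of the opposite sign (0.37). Within slide rows the difference was −1.92 from ES to NPC and −2.33 from ELA to NPC/Neu.

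Eed, the subunit that binds the trimethylated histone tail, lies on chromosome 7 (97103166 to 97129493, minus strand). Its total RNA read 16.02 in ES and 14.86 in ELA, then 14.84 in NPC and 14.45 in NPC/Neu. The ES value stood above the other 3, and those of ELA and NPC differed by less than the spot SD. Eed was 2.23-fold lower in ELA than in ES, and 2.98-fold lower in NPC/Neu than in ES. Eed was the only member 2-fold lower at the first transition and Cbx2 the only one higher, where 8.93% of all genes passed 2-fold in either direction.

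Suz12, the scaffold of the PRC2 core, lies on chromosome 11 (79806608 to 79847625, plus strand). Its total RNA read 13.33, 12.79, 12.58 and 12.50 from ES to NPC/Neu. Each stage was lower than the one before, but the last 2 were not separated by 2 spot SD (SD 0.0716). The difference between ES and NPC/Neu was 1.77-fold and did not reach 2-fold.

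Jarid2 lies on chromosome 13 (44824843 to 45017012, plus strand). Its total RNA read 14.14 in ES and 13.79 in ELA, then 12.33 in NPC and 12.89 in NPC/Neu. The lowest value was that of NPC, 2.74-fold below ELA, and NPC/Neu was 1.48-fold above NPC. All 4 stages differed by more than 2 spot SD from their neighbours in this order.

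**Figure D2:**
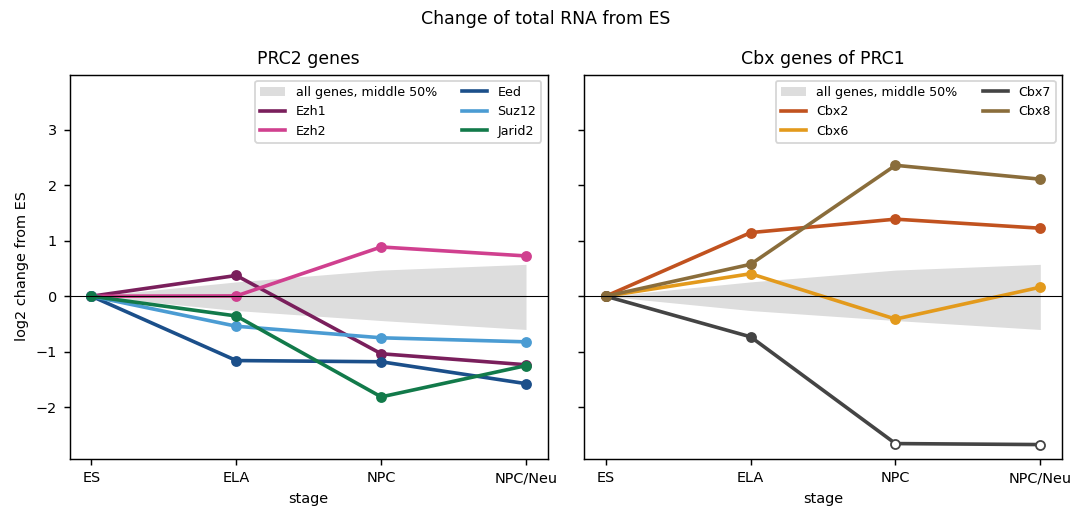
Log2 change of total RNA from ES (vertical axis) at each stage (horizontal axis) for the 5 PRC2 genes (left) and the 4 Cbx genes (right), 1 line per gene, means over probes. The gray band spans the middle 50% of all detected genes, and open circles mark values not well above background. Ezh1 and Ezh2 part after ELA, and Cbx7 and Cbx8 end 4.78 apart.

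Among the Cbx genes, Cbx2 was higher and Cbx7 lower from ELA on, and the largest steps of Cbx7 and Cbx8 lay between ELA and NPC. Cbx2 lies on chromosome 11 (118884276 to 118892584, plus strand). Its total RNA read 11.81 in ES and 12.96 in ELA, then 13.20 in NPC and 13.04 in NPC/Neu. The value was 2.21-fold higher in ELA than in ES, and the 3 later stages lay within 0.24 of each other. Cbx2 was 2.34-fold higher in NPC/Neu than in ES.

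Cbx8 is the neighbouring gene on chromosome 11 (118897619 to 118902283, minus strand). Its total RNA read 6.97 in ES and 7.55 in ELA, then 9.33 in NPC and 9.08 in NPC/Neu. The 2 later values were both above the 2 earlier ones, and the step of 3.44-fold fell between ELA and NPC. Cbx8 was 4.31-fold higher in NPC/Neu than in ES. The probe was well above background on all 8 arrays but lies 2158 bases before the annotated transcript end, unlike the other 3′ UTR probes, which lie within 314 bases of an end.

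Cbx7 lies on chromosome 15 (79746237 to 79801549, minus strand). Its total RNA read 9.23 in ES and 8.50 in ELA. The probe was not well above background on any of the 4 arrays of NPC and NPC/Neu, where its own signal was 6.58 and 6.56 in total RNA. Cbx7 was 1.66-fold lower in ELA than in ES. It was at least 6.28-fold lower in NPC and at least 6.36-fold lower in NPC/Neu than in ES, which are bounds set by the dim signal of the probe itself.

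Cbx6, on chromosome 15 (79654326 to 79665118, minus strand), differed little between ES and NPC/Neu. Its 3 probes lie near the ends of annotated transcripts with different 3′ ends: probe 1 matched 1, probe 2 matched 2 and probe 3 matched 3 of the 4 transcripts. Total RNA from ES to NPC/Neu read 11.99, 12.56, 11.44 and 12.04 for probe 1. It read 13.41, 13.96, 13.16 and 13.88 for probe 2, and 8.64, 8.74, 8.21 and 8.60 for probe 3. All 3 probes were highest in ELA and lowest in NPC, and their changes from ES to NPC/Neu were 0.05, 0.48 and −0.04.

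Between ELA and NPC, 4 of 9 members passed 2-fold, with Cbx8 higher and Ezh1, Jarid2 and Cbx7 lower, against 19.8% of all genes. From NPC to NPC/Neu, 0 of the 8 members detected passed 2-fold, against 9.31% of all genes. Between ELA and NPC/Neu, which share a slide row, Ezh1, Cbx7 and Cbx8 passed (27.2% of all genes). The change from ES to NPC/Neu was higher than that of Cbx7 by 3.89 for Cbx2, 2.83 for Cbx6 and 4.78 for Cbx8 on the log2 scale, each of them a lower limit because Cbx7 was not well above background in NPC/Neu. Cbx2 and Cbx8 differed from each other by 1.84-fold in this change, in favour of Cbx8. The size of this gap depended on the processing. Under the 8 other ways, the log2 change of Cbx8 was between 2.02 and 3.47 and that of Cbx2 between 1.04 and 1.34.

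**Figure D3:**
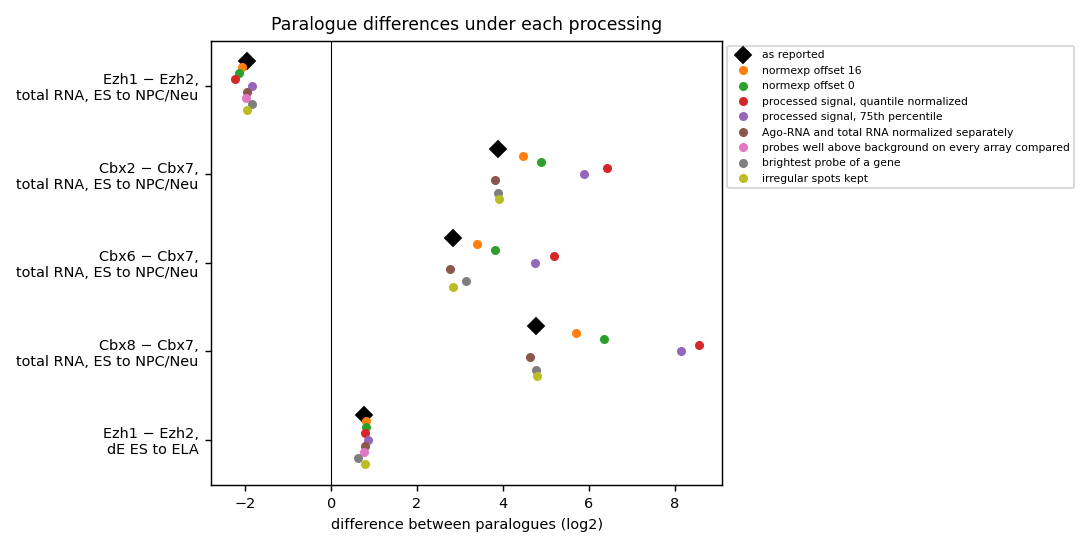
Differences between paralogues in their log2 change (horizontal axis) for the 5 comparisons on the vertical axis. The black diamond is the value as reported and each colored point is 1 of the 8 other ways of processing. Every difference keeps its sign, and those against Cbx7, not well above background in NPC/Neu, spread most.

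The enrichment E was computed as the log2 ratio of Ago-RNA over total RNA of the same probe at the same stage. In ES, E was above 0 for 9 of 9 members and for 52.6% of all detected genes, with a median of 0.50 against 0.04. There 3 members, Eed, Jarid2 and Cbx6, had 2-fold or more, where 9.36% of genes did. In ELA this held for Cbx6 alone (3.79% of genes). NPC had Jarid2 and Cbx6 among 8 detected members (5.32%), and NPC/Neu the same 2 of 8 (10.9%). The lowest E of any member was that of Ezh2 in NPC (−0.18). Cbx7 was not detected in NPC or NPC/Neu and has no E there.

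Jarid2 had the highest enrichment of the members in ES. Its Ago-RNA read 16.36 in ES and 14.39 in ELA, then 13.73 in NPC and 14.81 in NPC/Neu. E was 2.22 in ES and 0.60 in ELA, then 1.40 in NPC and 1.91 in NPC/Neu, so that the Ago-RNA was 4.65-fold above total RNA in ES and 1.51-fold above it in ELA. In ES, 99.6% of detected genes had a lower E. ELA was the lowest of the 4 stages, and all 4 values differed beyond 2 spot SD. With processed signal scaled to the 75th percentile, the order of the upper stages turned, with E of Jarid2 at 1.71 in ES and 2.06 in NPC/Neu. From ES to ELA, Ago-RNA fell by 1.98 and total RNA by 0.36, and the variation of E was −1.62 (spot SD 0.0966). Jarid2 was the only member whose E changed by 2-fold or more at this transition, a decrease found for 6.04% of genes, and at the 2 later transitions no member passed (5.92% and 6.54% of genes in either direction). Within the slide row, E of Jarid2 was 1.31 higher in NPC/Neu than in ELA and was the only member past 2-fold, an increase found for 7.93% of genes.

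By the thresholds of the study an mRNA is released when E is 2 or more at one stage, 0.5 or less at the next and changes by 1.5 or more, with Ago-RNA above the binding threshold at the enriched stage. Loading is the converse. With these limits no member probe was called released or loaded at any transition. Among all genes measured, 0.278% had a released and 0.189% a loaded probe from ES to ELA. From ELA to NPC the shares were 0.131% and 0.0445%, and from NPC to NPC/Neu 0.0444% and 0.0555%. Jarid2 met the first and the last of these in ES to ELA, and its E of 0.60 in ELA was just above the limit of 0.5. The paper relaxed that limit for some later analyses, such as its Gene Ontology analysis. As processed here, Jarid2 would count as released from ES to ELA under the relaxed limit, but this depended on the processing. With processed signal scaled to the 75th percentile, its E in ES was 1.71, short of 2. With Ago-RNA and total RNA normalized separately, E went from 2.45 in ES to 1.04 in ELA, a change short of 1.5. The share of all genes released under it was not computed. No other member had an E of 2 at any stage.

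Suz12 also had its highest E in ES, and for Eed this held under most but not all ways of processing. The Ago-RNA of Eed read 17.04 in ES and 14.91 in ELA, then 14.99 in NPC and 15.12 in NPC/Neu, with E of 1.02, 0.05, 0.14 and 0.68. The ES array stood apart in Ago-RNA, and E in ELA and NPC did not differ beyond the spot SD. With processed signal scaled to the 75th percentile, E of Eed was −0.034 in ES, where the median of all probes was −0.64, and 0.90 in NPC/Neu, so that ES was no longer highest. With Ago-RNA and total RNA normalized separately, ES and NPC/Neu were nearly level (1.01 and 1.04). The Ago-RNA of Suz12 read 14.25, 13.22, 12.90 and 12.59, with E of 0.92, 0.43, 0.32 and 0.08. E of Suz12 thus was lower at each stage, although ELA and NPC differed by less than 2 spot SD. The change of Ago-RNA from ES to ELA passed 2-fold downward for 3 members, Eed, Suz12 and Jarid2, and for 8.94% of genes.

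Ezh1 had its lowest E in ES, on all 3 probes. Probe 1 had an E of 0.37 in ES and 0.76 in ELA, then 1.02 in NPC and 0.62 in NPC/Neu. Probe 2 had 0.48, 0.80, 0.89 and 0.71. Probe 3 had −0.003, 0.89, 0.86 and 0.49. The mean over the probes was 0.28, 0.82, 0.92 and 0.61, and NPC, ELA and NPC/Neu did not differ from their neighbours in this order beyond 2 spot SD. Ezh2 had an E of 0.15, −0.08, −0.18 and 0.05. With the stages ranked by E, no neighbours were apart by 2 spot SD. Consecutive stages were, from ES to ELA (−0.24, spot SD 0.0966) and from NPC to NPC/Neu (0.23, spot SD 0.087). The variation of E from ES to ELA was 0.53 for Ezh1 and −0.24 for Ezh2, a difference of 0.77 (spot SD of 1 such variation 0.196 over all repeated probes). In NPC the E of Ezh1 was 1.11 above that of Ezh2.

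**Figure D4:**
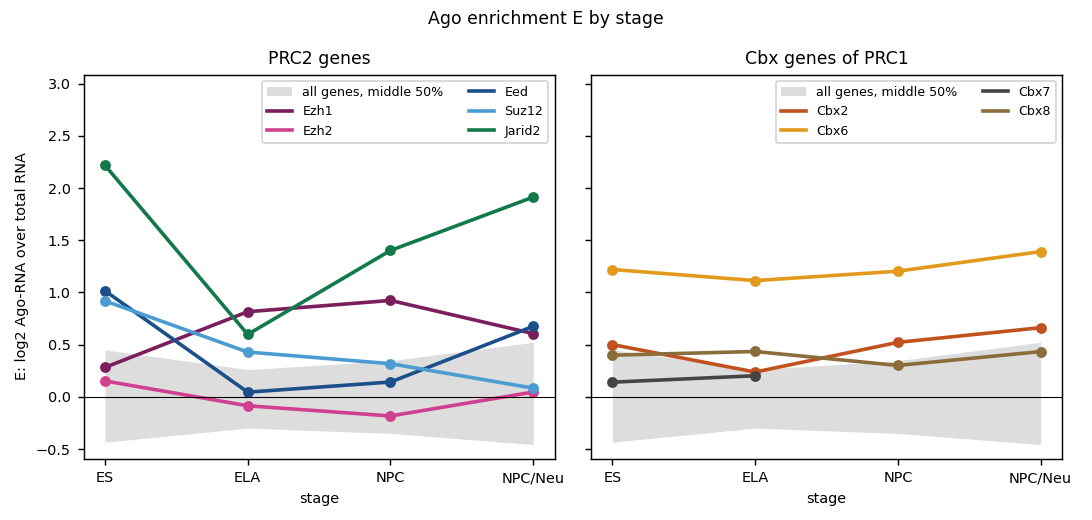
Enrichment E, the log2 ratio of Ago-RNA over total RNA (vertical axis), at each stage (horizontal axis) for the 5 PRC2 genes (left) and the 4 Cbx genes (right), means over probes. The gray band spans the middle 50% of all detected genes. Jarid2 dips in ELA, Ezh1 is lowest in ES, and Cbx6 stays between 1.11 and 1.39.

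Cbx6 was above 0 in E on each of its probes at each stage. For Cbx6, probe 1 had an E of 1.30, 0.88, 1.36 and 1.01 from ES to NPC/Neu. Probe 2 had 0.92, 0.80, 1.20 and 1.496, and probe 3 had 1.44, 1.65, 1.05 and 1.67. All 12 values were above 0.8, but the probes ranked the stages differently: NPC was highest for probe 1 and lowest for probe 3. The mean over probes was between 1.11 and 1.39. With the stages ranked by E, no neighbours were apart by 2 spot SD. Between consecutive stages, only the rise of 0.19 from NPC to NPC/Neu passed that limit (spot SD 0.087). Cbx2 had an E of 0.50, 0.24, 0.52 and 0.66, lowest in ELA. Cbx8 had 0.40, 0.44, 0.30 and 0.43, with no 2 neighbouring values apart by 2 spot SD. Its Ago-RNA of 7.37 in ES lay below the binding threshold of the study, 7.82 on average over the Ago-RNA arrays. Cbx7 had an E of 0.14 in ES and 0.20 in ELA. The Ago-RNA of Cbx2, Cbx7 and Cbx8 thus moved with their total RNA. From ES to NPC/Neu the Ago-RNA of Cbx2 rose by 1.39 and that of Cbx8 by 2.14, against 1.22 and 2.11 in total RNA, and that of Cbx7 was at least 6.82-fold lower.

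The members' profiles were compared over all 8 arrays, as a description, with 18443 genes well above background on every array. Some gene names were left out of the most similar genes by a rule on their letters. These began with A_, ENSMUST, LOC, Gm, TC, NAP, chr, lincRNA, AK or BC, or ended in Rik. These 8 points share their RNA pools and the slide. Ezh1 was most like Fam60a (r = 0.992), Adcy3 and Map3k9, and its r with Ezh2 was −0.859. Eed was most like Lpar5, Tyk2 and Map3k6, and Jarid2 most like Atg2a, Ctdp1 and Mtap1s. Cbx2 was most like St3gal2, Sort1 and Sirpa, and Cbx8 most like Zfp41, Fbxo16 and Gas1. Among the members, Eed and Suz12 (0.919), Cbx8 and Ezh2 (0.915) and Cbx2 and Cbx8 (0.865) were the closest pairs that included a ranked gene. Ezh2 and Suz12 were not ranked because their range over the total RNA arrays was under 1, nor was Cbx6, nor Cbx7, which was not detected on all arrays.

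The other genes of the Polycomb system were described from fixed lists. In total RNA from ES to NPC/Neu, 31.9% of all detected genes passed 2-fold in either direction. Whether the counts in these lists differ from that share was not tested. Of 7 PRC2 partners, 0 were higher by 2-fold in NPC/Neu than in ES total RNA and 3 were lower, with a median of −0.60. The gene with the largest fall, E130012A19Rik (Epop, a PRC2 cofactor of ES cells), fell by 2.29, and the highest change was that of Phf1 (0.97). The histone-binding subunits Rbbp4 and Rbbp7 changed by −0.60 and −0.30, and the DNA-binding cofactor Aebp2 by −0.56, none by 2-fold. E was lower in ELA than in ES for 6 of the 7, while it was higher in ELA for 48.4% of all detected genes. The list median of E was 0.76 in ES and 0.07 in ELA, against 0.04 and −0.03 for all detected genes. Of the 7 partners, Rbbp7 had the largest difference (1.09 against −0.11), on both of its probes.

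Of 17 PRC1 subunits, 4 were higher by 2-fold and 3 lower (31.9% of all genes in either direction), with a median of 0.18. Of these 17, the Polyhomeotic gene Phc2 had the largest rise, from 12.42 to 16.08 (12.7-fold), and L3mbtl2, with the largest fall, fell by 2.41. The ubiquitin ligase Ring1 rose by 2.60 and its paralogue Rnf2 by 0.68. Bmi1, a partner of these ligases, rose by 2.99. The E of Bmi1 was 1.16 in ES and 0.78 in ELA, then −0.99 in NPC and −0.90 in NPC/Neu, with the same course on both probes, and that of Ring1 was 0.86, 0.05, −0.73 and −1.28. Of 7 genes of the H2A deubiquitinase and the H3K27 demethylases, 2 were higher and 0 lower, led by the demethylase Kdm6b with a rise of 3.09, and Asxl2 had the lowest change (−0.85). Of the 3 heterochromatin paralogues Cbx1, Cbx3 and Cbx5, none passed 2-fold, with changes of −0.70, 0.00 and 0.11. Of 10 known Polycomb target genes, 8 were detected in ES or NPC/Neu total RNA, of which 3 were higher and 2 lower. The neural factor gene Lhx5 rose by 6.97, and the cell cycle inhibitor gene Cdkn2a fell by 1.74.

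**Figure D5:**
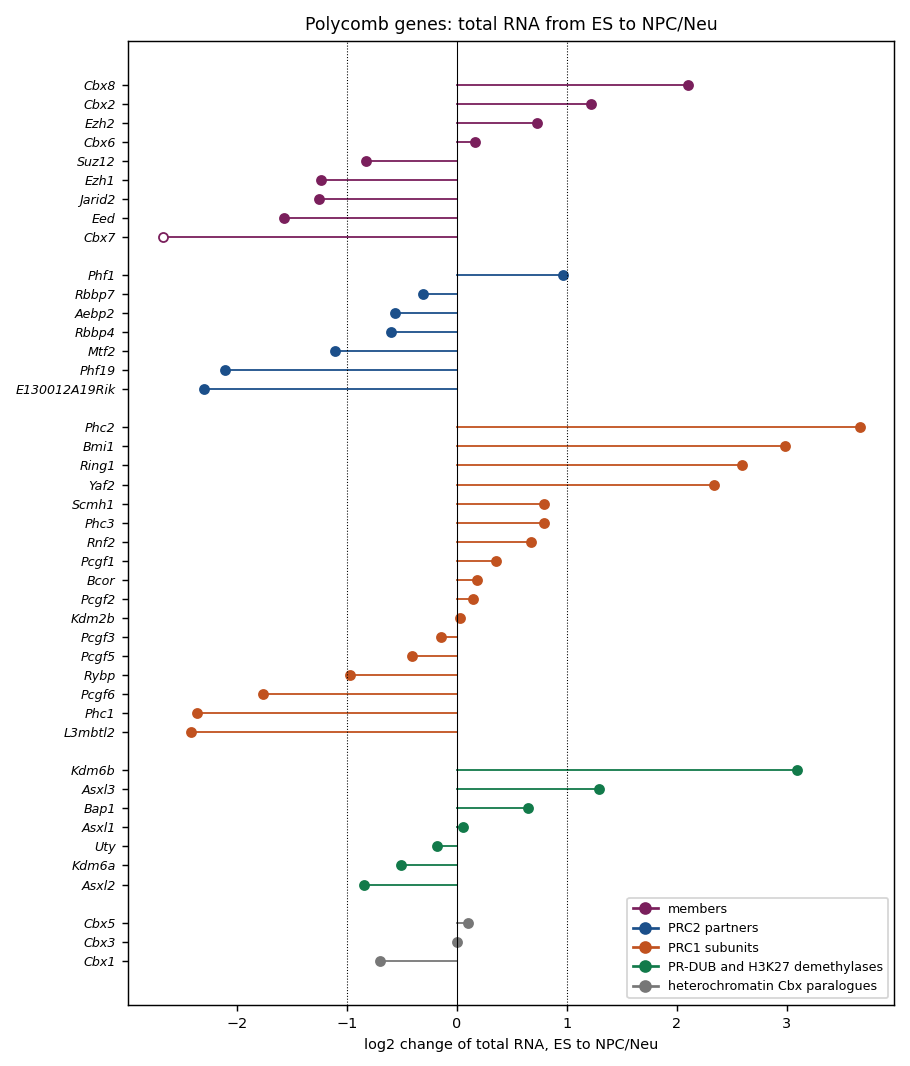
Log2 change of total RNA from ES to NPC/Neu (horizontal axis) for the 9 members and 4 lists of Polycomb-related genes (vertical axis), 1 point per gene. Dotted lines mark 2-fold and the open circle is a bound. Phc2, Kdm6b and Bmi1 rise most, and Cbx7, L3mbtl2 and Phc1 are lowest.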

How the data were processed

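Per the file headers the arrays were read with Feature Extraction 10.7.3.1 against an mm9 annotation, whereas the submitters' processing notes name version 9.1 and limma. The values deposited are the intensity of each spot and of its surroundings, without normalization between arrays. From these, background was removed by normexp with an offset of 50 (limma 3.58.1, R 4.3.3). Control and irregular spots were dropped. The log2 signals were brought to common quantiles across all 8 arrays, and repeated probes and then the probes of a gene were averaged. The threshold of Ago binding came from 2 Gaussian components (mclust 6.1.1), as 3 SD above the mean of the dim one. Other steps used Python 3.11.15, numpy 2.4.6 and pandas 2.3.3.

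With 1 array per condition, the number of arrays limits the precision and no test was made. Error is the SD between the 10 spots of each of 399 repeated probes, which covers the array and not the cells. Levels were not compared between probes. Shares of all genes are over genes with a probe well above background on an array compared. A probe not well above background gives a bound. The procedure was tested on simulated data. The 8 processing alternatives tried are named in the closing section.

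The members, gene lists and miRNAs were chosen with earlier results of these data known. Named are the members, their 3 most similar genes, and from each list the largest rise and fall besides 6 fixed subunits. A further PRC1 gene was left out of its list and is not reported here. Phc1 and Phc2 were chosen after their values were seen. A control immunoprecipitation was not analysed here.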

Additional observations from a re-analysis of the deposited data

Results flagged for a closer look

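Among the 9 members and the subunits Rbbp4, Rbbp7, Aebp2, Ring1, Rnf2 and Bmi1, there were 3 genes whose enrichment E in Ago-RNA lay above 0 at one stage and below 0 at another, each time by more than the spot SD. With 1 array per condition these differences were not tested. E of Ezh2 was −0.18 in NPC and 0.15 in ES, a small span that compares with a spot SD of 0.134 and 0.129. With Ago-RNA and total RNA normalized separately both were above 0 (0.25 and 0.61), so this change of sign depends on the normalization. E of Ring1 was −1.28 in NPC/Neu and 0.86 in ES. E of Bmi1 was −0.99 in NPC and 1.16 in ES. For Ring1 and Bmi1 the signs were kept under the 8 alternatives.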

How the results depend on the processing

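The alternatives were normexp offsets of 16 and 0, processed signal with quantile normalization or scaled to the 75th percentile, separate normalization of Ago-RNA and total RNA, well above background probes alone, the brightest probe of a gene, and irregular spots kept. Of 34 member values of 2-fold or more, 267 of 268 recomputed values kept their sign and 264 stayed at 2-fold or more. The exception in sign was E of Eed in ES, −0.034 with processed signal at the 75th percentile, a scaling that moved the median E of all probes in ES to −0.64. Counts of members in total RNA stayed within 1.5 times throughout. In ELA, E passed 2-fold for 3 members with separate normalization and for 0 with the brightest probe, in NPC/Neu for 4 with separate normalization, and the change of E from ELA to NPC for 1 (Cbx7, not detected in NPC) with processed signal under both scalings. The difference of Ezh1 and Ezh2 in total RNA was −2.14 with offset 0, −2.25 with processed, quantile normalized signal and −1.835 at the 75th percentile. For Cbx2, Cbx6 and Cbx8 against Cbx7 it was 4.47, 3.40 and 5.70 with offset 16, 4.88, 3.80 and 6.35 with offset 0, 6.43, 5.18 and 8.56 with processed, quantile normalized signal, 5.89, 4.75 and 8.16 at the 75th percentile, and 3.15 for Cbx6 with the brightest probe. The causes of these shifts were not tested. For Cbx7 no value could be had where every array had to be well above background. E of Jarid2 in ELA ranged from 0.60 to 1.04 and its variation from ES to ELA from −1.63 to −1.10. No paired analysis was possible because no condition has a second array, and stages are not replicates of one another.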
